A study of Homo sapiens with 8 samples.

Results

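The genes of cholesterol and fatty acid synthesis were followed in A375-LM3, a subline of the human melanoma cell line A375, grown in a dish or recovered from a tumor. The module was a list of 34 genes, and every probe on the array whose platform gene symbol is one of them was taken, whatever its values. Probes were present for 32 of the 34 genes, 49 probes in all. A total of 30 members passed the filter on dim probes and were tested, among 12415 genes tested on the array. STARD4, a sterol transfer protein, exceeded background on 0 of 8 arrays, and the fatty acid desaturase FADS2 on 1 of 8, so neither was tested. FDFT1 and ACSL3 were not analysed here.

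RNA was hybridised to 1-colour Illumina BeadChips, on which each probe gives 1 intensity, with 2 arrays in each of 4 groups. Cultured vector cells expressed an empty vector and cultured JMJD3 cells expressed JMJD3, the histone demethylase encoded by KDM6B, and both were kept for 1 day in medium with fetal bovine serum. The dissociated vector and dissociated JMJD3 groups came from primary tumors formed by A375-LM3 cells of the same genotypes and were then cultured for 3 passages. Growth in a tumor, dissociation and time in culture therefore differ together between the origins and cannot be told apart. The labels do not give the promoter behind either construct, whether a line is a clone or a pool, the host of the tumors, the medium used after dissociation, or whether the arrays numbered 1 and 2 came from separate cultures or tumors. The p-values therefore rest on a spread between arrays that may be technical.

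Between 19913 and 19923 probes per array exceeded the background level, a near equal number because the arrays share 1 intensity distribution, and the number of arrays limits the precision. KDM6B had 1 probe, above background on 1 of 8 arrays, so that probe does not check the labels. The arrays did carry melanocyte lineage transcripts: SOX10 and MITF were above background on every array, while MLANA, TYR and S100B were above it on none. SOX10 measured between 1188 and 3096 on 7 arrays and 231 on replicate 2 of the dissociated vector cells. That array and dissociated JMJD3 replicate 1 were the extremes of the second principal component, which held 19.6% of the variance, and counts of called members without both are given.

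Cholesterol is built from acetyl-CoA through mevalonate, isoprenoid diphosphates, squalene and lanosterol, and the same acetyl-CoA feeds fatty acid synthase and the desaturases and elongases downstream of it. Transcription of both branches is driven by the SREBP proteins, encoded by SREBF1 and SREBF2, which SCAP escorts from the endoplasmic reticulum for cleavage when membrane sterol is low. INSIG1 retains SCAP and the SREBPs when sterol is plentiful, and is itself an SREBP target, so its transcript is commonly read together with the enzymes. Tumor cells often make their own sterols and fatty acids.

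The module was higher in tumor-dissociated than in cultured cells. Averaged over vector and JMJD3 cells, 19 of 30 members rose, 0 fell and 11 did not pass (limma, Benjamini-Hochberg adjusted p under 0.05 over all genes tested), where 11.8% of all genes tested rose and 10.7% fell. The median log2 difference was 0.54 over the 30 members tested, a 1.45-fold difference, and -0.02 over all genes. The 4 dissociated arrays lay above the 4 cultured ones without overlap in 20 members and below them in 0, against 12.5% and 12.9% of all genes. All 30 tested members were above background on at least 1 array of each origin. Of the 19 calls, 7 were kept in each of 22 alternatives, MVK, TM7SF2, MSMO1, DHCR7, INSIG1, SCD and FADS1. The other 12 were lost in at least 1: ACAT2, HMGCS1, MVD, IDI1, FDPS, SQLE, LSS, CYP51A1, SREBF1, ACSS2, ACACA and FASN. The arrays measure RNA of whole cultures, so a change in the number of cells making a transcript and a change in its level per cell cannot be told apart.

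Within each genotype the direction was the same and fewer members passed. In vector cells 7 of 30 members rose and 0 fell, against 6.15% and 3.99% of all genes, with a median log2 difference of 0.46. Both dissociated arrays lay above both cultured ones in 20 members and below them in 3, against 26.7% and 30.8% of all genes. In JMJD3 cells 11 of 30 rose and 0 fell, against 3.76% and 2.2% of all genes, with a median of 0.59. Here 24 members lay above and 1 below without overlap, against 26.6% and 29% of all genes. The 7 members called in vector cells, MVK, LSS, TM7SF2, MSMO1, DHCR7, SCD and FADS1, were among the 11 called in JMJD3 cells, which added SREBF1, ACSS2, ACACA and FASN. The averaged comparison uses the arrays of both, so it is no independent support for either. Single arrays moved these counts by over 1.5 times. The averaged count was 9 without cultured vector replicate 2 and 12 without cultured JMJD3 replicate 2. The vector count was 2 without cultured vector replicate 2, 2 without dissociated vector replicate 1 and 3 without dissociated vector replicate 2. In JMJD3 cells the count was 3 when cultured replicate 1 was left out, 0 when cultured replicate 2 was, and 1 when dissociated replicate 1 was. With both arrays that stood apart left out, the JMJD3 count was 1 and the averaged count 14.

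**Figure D1:**
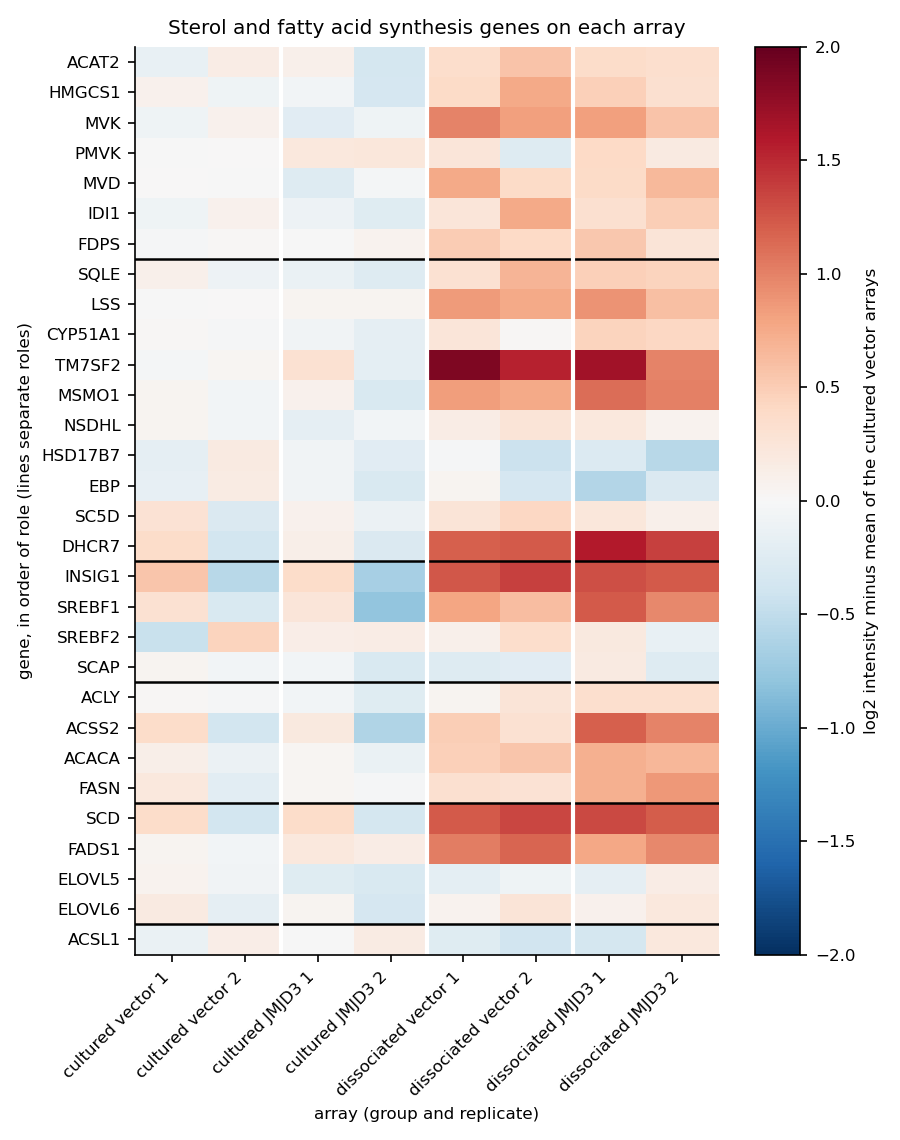
Each cell is the log2 intensity of a member on 1 array minus the mean of the 2 cultured vector arrays, with 30 genes in rows ordered by role and 8 arrays in columns. The 4 dissociated columns are higher for most sterol genes and for SCD and FADS1, and the cultured replicate 2 columns are lower than replicate 1 for INSIG1, SREBF1, ACSS2 and SCD.

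In the mevalonate pathway, which turns acetyl-CoA into isoprenoid diphosphates, 6 of 7 members rose. Mevalonate kinase, MVK, showed the largest rise of the 6. MVK measured 184 and 195 in cultured vector, 177 and 185 in cultured JMJD3, 275 and 256 in dissociated vector, and 257 and 232 in dissociated JMJD3 cells. Every dissociated array was above every cultured one, and both genotypes were at a similar level within each origin. The rise was 0.88 ± 0.12 on the log2 scale (SE, 4 against 4 arrays, limma adjusted p = 0.00147), or 1.83-fold. MVD, which decarboxylates mevalonate diphosphate, measured 195 and 193 in cultured vector, 179 and 192 in cultured JMJD3, 257 and 222 in dissociated vector, and 222 and 246 in dissociated JMJD3 cells. Its groups did not overlap either, and it rose 1.54-fold (0.62 ± 0.13, limma adjusted p = 0.0111). Both genes were dim, so the background correction sets their fold: without it the log2 differences were 0.46 and 0.32, still called.

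The brighter members of the pathway had smaller differences. HMGCS1, the synthase that commits acetoacetyl-CoA to the pathway, measured 806 and 722 in cultured vector, 738 and 623 in cultured JMJD3, 965 and 1222 in dissociated vector, and 1021 and 927 in dissociated JMJD3 cells. The dissociated arrays were all above the cultured ones, and the rise was 0.59 ± 0.13 on the log2 scale (limma adjusted p = 0.0149). IDI1, the isomerase of isopentenyl diphosphate, measured 522 and 576 in cultured vector, 517 and 480.0 in cultured JMJD3, 628 and 856 in dissociated vector, and 657 and 728 in dissociated JMJD3 cells. It rose 1.45-fold (log2 0.54 ± 0.14, limma adjusted p = 0.0253), with replicate 2 of the dissociated vector cells highest. FDPS, which makes farnesyl diphosphate, measured 778 and 804 in cultured vector, 791 and 823 in cultured JMJD3, 1077 and 1014 in dissociated vector, and 1101 and 923 in dissociated JMJD3 cells. Its rise of 0.41 ± 0.11 (limma adjusted p = 0.0313) also came without overlap. ACAT2, the cytosolic thiolase that makes acetoacetyl-CoA, measured 2000.3 and 2458 in cultured vector, 2372 and 1766 in cultured JMJD3, 2806 and 3239.8 in dissociated vector, and 2838 and 2769 in dissociated JMJD3 cells. The cultured arrays of ACAT2 spread widely within each group, and its rise of 0.47 ± 0.14 (limma adjusted p = 0.0409) had the highest adjusted p of the 6. Phosphomevalonate kinase, PMVK, measured 722 and 729 in cultured vector, 826 and 830.4 in cultured JMJD3, 843 and 624 in dissociated vector, and 923 and 807 in dissociated JMJD3 cells. Its groups overlapped and its log2 difference was 0.03 ± 0.14 (limma adjusted p = 0.895), with a 95% interval of -0.28 to 0.34.

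From squalene to cholesterol, 6 of 10 tested members rose, and the sterol reductases TM7SF2 and DHCR7 had the largest differences of the segment. TM7SF2, which reduces a ring double bond after lanosterol demethylation, measured 187 and 192 in cultured vector, 209.5 and 178 in cultured JMJD3, 419.6 and 354 in dissociated vector, and 379 and 274 in dissociated JMJD3 cells. The lowest dissociated array, replicate 2 of the JMJD3 cells, was still above the highest cultured array. TM7SF2 rose 2.81-fold (log2 1.49 ± 0.18, limma adjusted p = 0.000929), with a log2 difference of 0.88 without background correction. DHCR7, which makes cholesterol in the final reduction of one branch, measured 475 and 326 in cultured vector, 415 and 338 in cultured JMJD3, 762 and 775 in dissociated vector, and 972 and 848 in dissociated JMJD3 cells. In culture replicate 1 was above replicate 2 in both genotypes, and the dissociated arrays lay above all 4. DHCR7 rose 2.62-fold (log2 1.39 ± 0.18, limma adjusted p = 0.00111).

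MSMO1, a monooxygenase that takes methyl groups off lanosterol derivatives, measured 586 and 549 in cultured vector, 594 and 476 in cultured JMJD3, 931 and 891 in dissociated vector, and 1106 and 1040.0 in dissociated JMJD3 cells. The groups stood clear of each other and MSMO1 rose 1.98-fold (log2 0.99 ± 0.12, limma adjusted p = 0.00101). Lanosterol synthase, LSS, closes the sterol rings and measured 473 and 474 in cultured vector, 487 and 486 in cultured JMJD3, 771 and 729 in dissociated vector, and 794 and 664 in dissociated JMJD3 cells. Its 4 cultured arrays were nearly equal and all below the dissociated ones, and it rose 1.68-fold (log2 0.75 ± 0.11, limma adjusted p = 0.00249). Squalene epoxidase, SQLE, a rate-limiting enzyme of this segment, measured 1148 and 1010.4 in cultured vector, 987 and 921 in cultured JMJD3, 1312 and 1658 in dissociated vector, and 1462 and 1429.5 in dissociated JMJD3 cells. It rose 1.49-fold (log2 0.58 ± 0.12, limma adjusted p = 0.0116) without overlap. CYP51A1, the lanosterol demethylase, measured 303 and 296 in cultured vector, 290.4 and 276 in cultured JMJD3, 335 and 303 in dissociated vector, and 371 and 365 in dissociated JMJD3 cells. Its rise of 0.34 ± 0.11 passed narrowly (limma adjusted p = 0.0489), and replicate 2 of the dissociated vector cells was level with replicate 1 of the cultured vector cells.

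The 4 other tested members of this segment did not pass. NSDHL, which works with HSD17B7 in removing methyl groups from the sterol, had a log2 difference of 0.22 ± 0.11, and the sterol desaturase SC5D one of 0.26 ± 0.15. HSD17B7 measured 4074 and 5250.0 in cultured vector, 4425 and 3961 in cultured JMJD3, 4548 and 3461 in dissociated vector, and 3863 and 3186 in dissociated JMJD3 cells. The sterol isomerase EBP measured 1073 and 1312 in cultured vector, 1131 and 982 in cultured JMJD3, 1223 and 958 in dissociated vector, and 821 and 987 in dissociated JMJD3 cells. Both had values that overlapped between the origins, with log2 differences of -0.24 and -0.20 (limma adjusted p = 0.255 and 0.347).

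Among the sterol-sensing genes 2 of 4 tested members rose. INSIG1, which holds the SREBPs in the endoplasmic reticulum, measured 1422 and 714 in cultured vector, 1266 and 671 in cultured JMJD3, 2218 and 2432 in dissociated vector, and 2295 and 2211 in dissociated JMJD3 cells. The 4 dissociated arrays lay close together and above the rest, whereas in culture replicate 1 was far above replicate 2 in both genotypes. INSIG1 rose 2.55-fold (log2 1.35 ± 0.27, limma adjusted p = 0.00896). SREBF1, which encodes the SREBP that leads fatty acid genes, measured 902 and 622 in cultured vector, 861 and 477 in cultured JMJD3, 1216 and 1091 in dissociated vector, and 1617 and 1361 in dissociated JMJD3 cells. It had no overlap between origins and rose 2.05-fold (log2 1.04 ± 0.23, limma adjusted p = 0.0129). In JMJD3 cells its difference of 1.37 was 0.86 without cultured JMJD3 replicate 2 and did not pass. SREBF2, which encodes the SREBP that leads sterol genes, was near background, between 156 and 202, with a log2 difference of 0.05 ± 0.19 (limma adjusted p = 0.869). SCAP, the escort protein, was between 1802 and 2489, with a difference of -0.04 ± 0.13 (limma adjusted p = 0.838).

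In the supply of acetyl-CoA and the synthesis of fatty acids, 3 of 4 members rose. ACSS2, which activates acetate, measured 1371 and 869 in cultured vector, 1233 and 750.0 in cultured JMJD3, 1482 and 1325 in dissociated vector, and 2353 and 2059 in dissociated JMJD3 cells. Its origins overlapped, since cultured vector replicate 1 exceeded dissociated vector replicate 2, and the dissociated JMJD3 arrays were highest. ACSS2 rose 1.80-fold (log2 0.85 ± 0.21, limma adjusted p = 0.0210). Acetyl-CoA carboxylase, ACACA, which makes malonyl-CoA, measured 1151 and 1002 in cultured vector, 1101 and 993 in cultured JMJD3, 1449 and 1523 in dissociated vector, and 1692 and 1636 in dissociated JMJD3 cells. Its 4 dissociated arrays were all above the cultured ones, a rise of 1.54-fold (log2 0.62 ± 0.11, limma adjusted p = 0.00571). Fatty acid synthase, FASN, measured 4471 and 3355 in cultured vector, 3961 and 3801 in cultured JMJD3, 4794 and 4709 in dissociated vector, and 6256 and 7001 in dissociated JMJD3 cells. In vector cells its highest cultured array was close below the dissociated arrays, and in JMJD3 cells the gap was wider. FASN rose 1.46-fold (log2 0.54 ± 0.13, limma adjusted p = 0.0161). ACLY, which cleaves citrate to acetyl-CoA, was between 2423 and 2880 in culture and between 2950 and 3584 in dissociated cells. Its origins did not overlap, but its log2 difference of 0.32 ± 0.11 did not pass (limma adjusted p = 0.0680).

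Of the 4 tested desaturases and elongases, both desaturases rose and neither elongase passed. SCD, which puts the first double bond into saturated acyl-CoA, was the brightest member and measured 4718 and 2891 in cultured vector, 4709 and 2905 in cultured JMJD3, 8453 and 9167 in dissociated vector, and 9101 and 8432 in dissociated JMJD3 cells. All dissociated arrays were far above the cultured ones, while the cultured replicates split into a higher and a lower one alike in both genotypes. SCD rose 2.42-fold (log2 1.27 ± 0.20, limma adjusted p = 0.00295). FADS1, which desaturates polyunsaturated fatty acids, measured 1472 and 1365 in cultured vector, 1621 and 1559 in cultured JMJD3, 2766 and 3052 in dissociated vector, and 2360.4 and 2664 in dissociated JMJD3 cells. It rose 1.86-fold (log2 0.89 ± 0.11, limma adjusted p = 0.000947) and did not overlap between the origins.

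The elongase of polyunsaturated acyl-CoA, ELOVL5, measured 1195 and 1103 in cultured vector, 990.4 and 949.6 in cultured JMJD3, 1011 and 1091 in dissociated vector, and 1027 and 1257 in dissociated JMJD3 cells. ELOVL6, the elongase of saturated and monounsaturated acyl-CoA, measured 1699 and 1358 in cultured vector, 1577 and 1224 in cultured JMJD3, 1583 and 1796 in dissociated vector, and 1611 and 1741 in dissociated JMJD3 cells. The origins overlapped in both, with differences of 0.06 ± 0.12 and 0.23 ± 0.14 (limma adjusted p = 0.769 and 0.265). The long-chain acyl-CoA synthetase ACSL1, the 1 tested member of its kind, measured 487 and 560.4 in cultured vector, 522 and 574 in cultured JMJD3, 458 and 422 in dissociated vector, and 432 and 589 in dissociated JMJD3 cells. Its values overlapped between the origins (log2 -0.23 ± 0.15, limma adjusted p = 0.285).

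**Figure D2:**
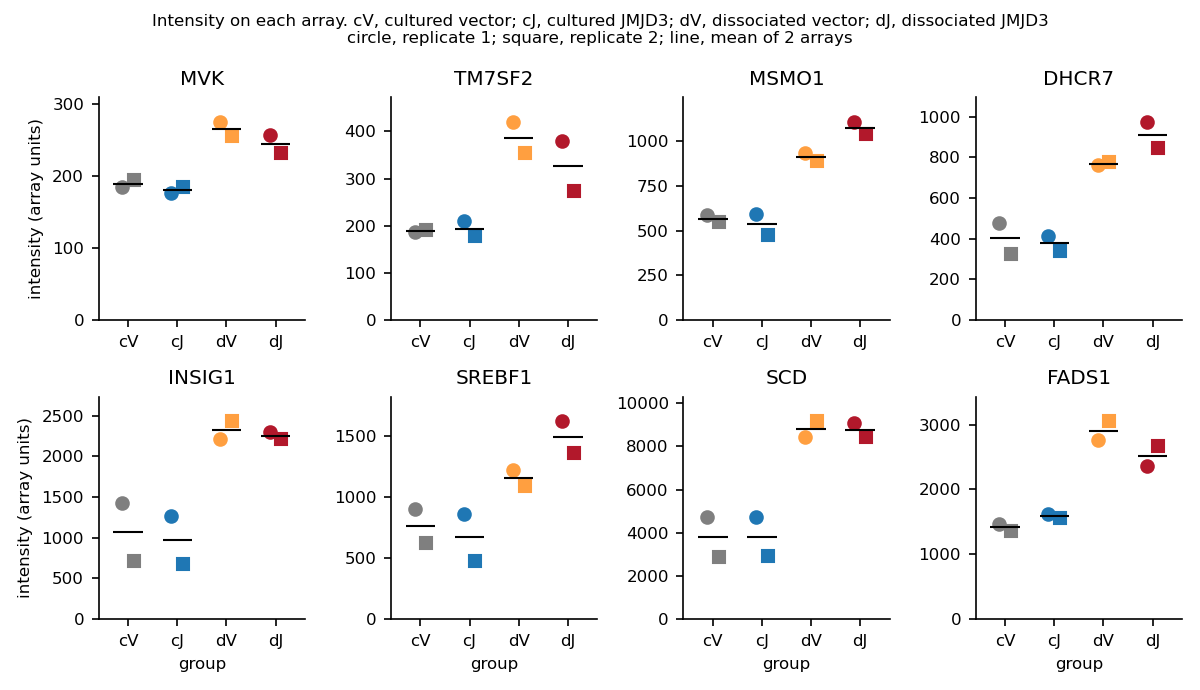
Each panel plots the intensity of 1 gene in array units on a linear axis from 0, by group, with a circle for replicate 1, a square for replicate 2 and a line at the mean of the 2 arrays. Dissociated groups sit above cultured groups for the named sterol and desaturase genes, and the circle is above the square in culture for INSIG1 and SCD.

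The promoters of TM7SF2, DHCR7, INSIG1 and SCD are printed because these 4 members had the largest background-corrected differences and all rose. On the deposited values without correction SCD (1.25), INSIG1 (1.25), DHCR7 (1.12) and SREBF1 (0.92) came before TM7SF2 (0.88). Each is the RefSeq sequence of GRCh38.p14, from 250 bases before the annotated start to 50 after it, read 5′ to 3′ on the gene's strand. TM7SF2 lies at chr11:65111622-65111921 on the plus strand, DHCR7 at chr11:71448344-71448643 on the minus strand, INSIG1 at chr7:155297628-155297927 on the plus strand and SCD at chr10:100346983-100347282 on the plus strand. Capitals mark the CCAAT box (CCAAT), the GC box (GGGCGG) and the E-box (CACGTG) on either strand, so a CCAAT box of the other strand reads ATTGG and a GC box CCGCCC.
TM7SF2: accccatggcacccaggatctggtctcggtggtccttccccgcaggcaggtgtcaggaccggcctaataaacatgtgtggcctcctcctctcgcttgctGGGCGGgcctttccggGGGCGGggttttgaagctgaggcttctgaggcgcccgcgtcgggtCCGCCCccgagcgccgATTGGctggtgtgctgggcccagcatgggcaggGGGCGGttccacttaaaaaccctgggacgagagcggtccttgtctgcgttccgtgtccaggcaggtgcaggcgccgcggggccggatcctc
DHCR7: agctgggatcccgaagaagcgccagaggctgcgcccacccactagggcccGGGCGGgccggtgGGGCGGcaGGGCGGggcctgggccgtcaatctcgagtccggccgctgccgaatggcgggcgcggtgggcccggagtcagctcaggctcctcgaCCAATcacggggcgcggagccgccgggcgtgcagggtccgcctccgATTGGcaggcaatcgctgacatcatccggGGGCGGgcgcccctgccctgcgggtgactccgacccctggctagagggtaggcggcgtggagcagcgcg
INSIG1: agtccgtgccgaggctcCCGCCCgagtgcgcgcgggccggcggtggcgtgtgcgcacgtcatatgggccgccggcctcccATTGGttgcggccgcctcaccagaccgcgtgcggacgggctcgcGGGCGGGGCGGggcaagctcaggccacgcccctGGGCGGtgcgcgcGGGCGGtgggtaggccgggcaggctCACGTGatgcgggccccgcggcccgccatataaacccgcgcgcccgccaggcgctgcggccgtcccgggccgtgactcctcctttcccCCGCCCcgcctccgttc
SCD: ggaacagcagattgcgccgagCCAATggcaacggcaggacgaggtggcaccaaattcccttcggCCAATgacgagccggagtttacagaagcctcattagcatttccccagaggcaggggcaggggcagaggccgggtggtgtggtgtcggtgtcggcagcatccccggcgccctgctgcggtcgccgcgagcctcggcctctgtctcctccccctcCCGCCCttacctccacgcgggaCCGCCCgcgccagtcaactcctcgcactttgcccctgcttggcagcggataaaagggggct

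All 4 promoters hold at least 1 CCAAT box, bound by NF-Y, and at least 1 GC box, bound by SP1, which are factors known to work with SREBPs. In INSIG1, 2 of the GC boxes overlap. RefSeq promoters were matched for 30 of the 34 members, of which 27 were tested and 16 rose. The CCAAT box was present in 11 of the 16 that rose and 7 of the 11 that did not pass, against 35.7% of 27305 promoters of the same length. The GC box was in 16 of 16 and 9 of 11, against 44.6%, and the E-box in 2 of 16 and 3 of 11, against 7.43%. The strict core of the sterol regulatory element, TCACNCCAC, was found in 0 of 16 and 1 of 11, SREBF2, against 1.15% of promoters. The members counted had passed the filter on dim probes, whereas the shares are of all promoters, whether or not the gene was tested here. The shares are therefore no matched comparison. These matches are letters in a 300-base window, and no binding was measured. They are given as a description, with no test between the members that rose and those that did not.

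The size of the origin difference in each genotype is set side by side, since the genotypes share no arrays in this comparison. TM7SF2 differed by 1.70 ± 0.26 in vector and 1.28 ± 0.26 in JMJD3 cells on the log2 scale. DHCR7 differed by 1.21 ± 0.25 and 1.57 ± 0.25, and SCD by 1.28 ± 0.28 and 1.27 ± 0.28. These 3 genes passed in both genotypes. With both arrays that stood apart left out, none of the 3 passed in JMJD3 cells, where TM7SF2 stood at 0.93, and TM7SF2 alone of the 3 passed in vector cells. INSIG1 had differences of 1.30 ± 0.38 and 1.40 ± 0.38 and passed in neither (limma adjusted p = 0.0642 and 0.0658).

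No member's origin difference was called as unequal between genotypes. ACSS2 differed by 0.40 ± 0.30 in vector and 1.29 ± 0.30 in JMJD3 cells, and FASN by 0.30 ± 0.18 and 0.79 ± 0.18. The interaction, JMJD3 minus vector, was 0.90 ± 0.42 for ACSS2 (limma adjusted p = 0.746, 95% interval -0.05 to 1.85) and 0.48 ± 0.25 for FASN (limma adjusted p = 0.788, 95% interval -0.08 to 1.05). In total 0 of 30 members passed the interaction test in limma, 0 at an unadjusted p under 0.05, against 0.105% and 6.88% of all genes.

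**Figure D3:**
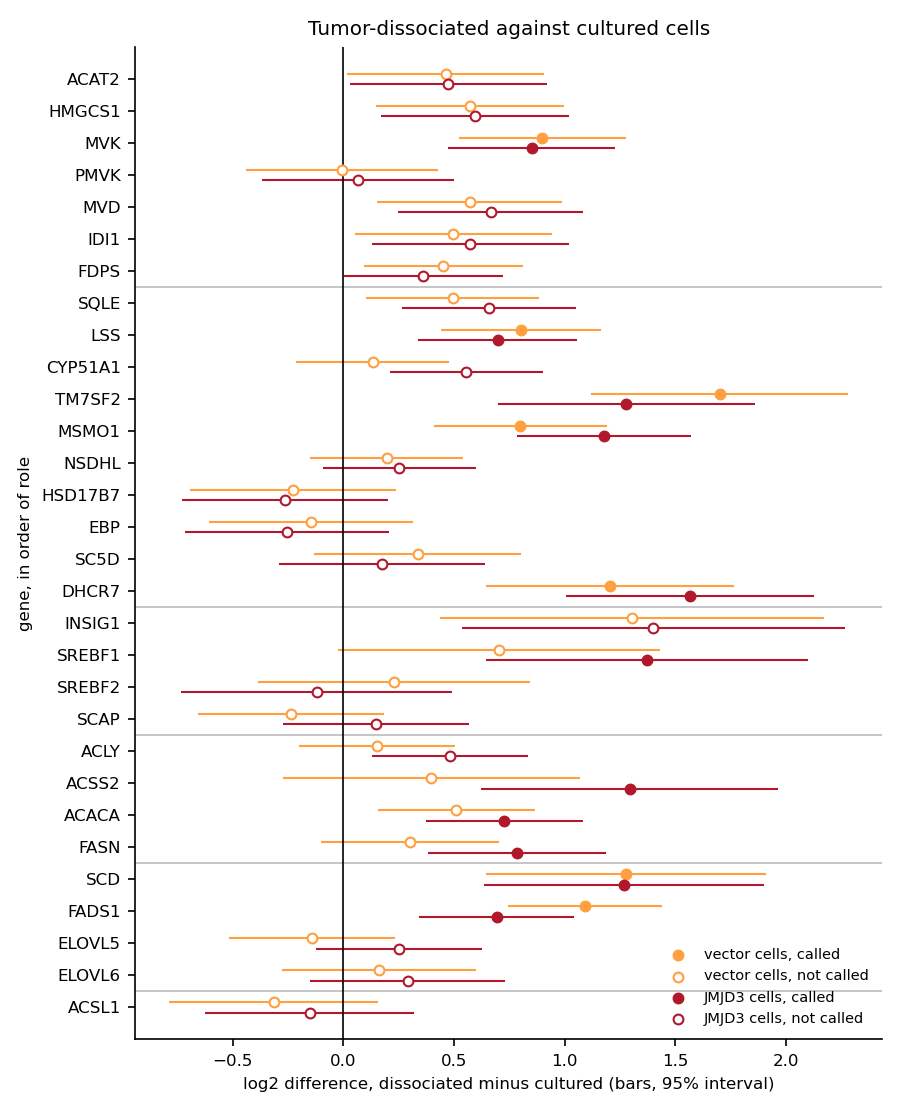
Points are log2 differences of dissociated minus cultured cells for 30 members, separately for vector and JMJD3 cells, with 95% intervals as lines, filled where called and open where not. Most points lie right of 0, led in vector cells by TM7SF2, DHCR7, INSIG1 and SCD. In JMJD3 cells DHCR7, INSIG1, SREBF1 and ACSS2 lie farthest right. The intervals of both genotypes overlap for TM7SF2, DHCR7, INSIG1 and SCD.

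The cultured arrays varied in a patterned way. Replicate 1 exceeded replicate 2 in both cultured groups for 17 of 30 members, or 56.7%, against 32.2% of all genes. In dissociated cells that held for 10 of 30, or 33.3%, against 30.5%. Among these 17 the gaps were widest in INSIG1, SREBF1, ACSS2, SCD and DHCR7. On the log2 scale, INSIG1 was higher on replicate 1 by 1.11 in cultured vector and 1.03 in cultured JMJD3 cells, and the gaps of SREBF1 were 0.62 and 1.02. For SCD they were 0.73 and 0.72, and for ACSS2 0.73 and 0.80. In dissociated cells the gap of INSIG1 was -0.14 and 0.06, and that of SCD -0.12 and 0.11. The labels do not say whether arrays of the same number shared a culture or a day.

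The size of the origin difference depends on which cultured arrays it is set against. Leaving out both cultured replicate 2 arrays, the averaged difference of INSIG1 was 0.82, and leaving out both replicate 1 arrays it was 1.89. In the same order SREBF1 stood at 0.63 and 1.45, and ACSS2 at 0.46 and 1.23. SCD stood at 0.91 and 1.63, and DHCR7 at 1.10 and 1.67. All 5 remained above 0 in both fits. By contrast FADS1 stood at 0.85 and 0.94 and LSS at 0.75 and 0.75. The averaged count of called members was 7 without the replicate 2 arrays and 10 without the replicate 1 arrays, fits chosen after the values had been seen.

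**Figure D4:**
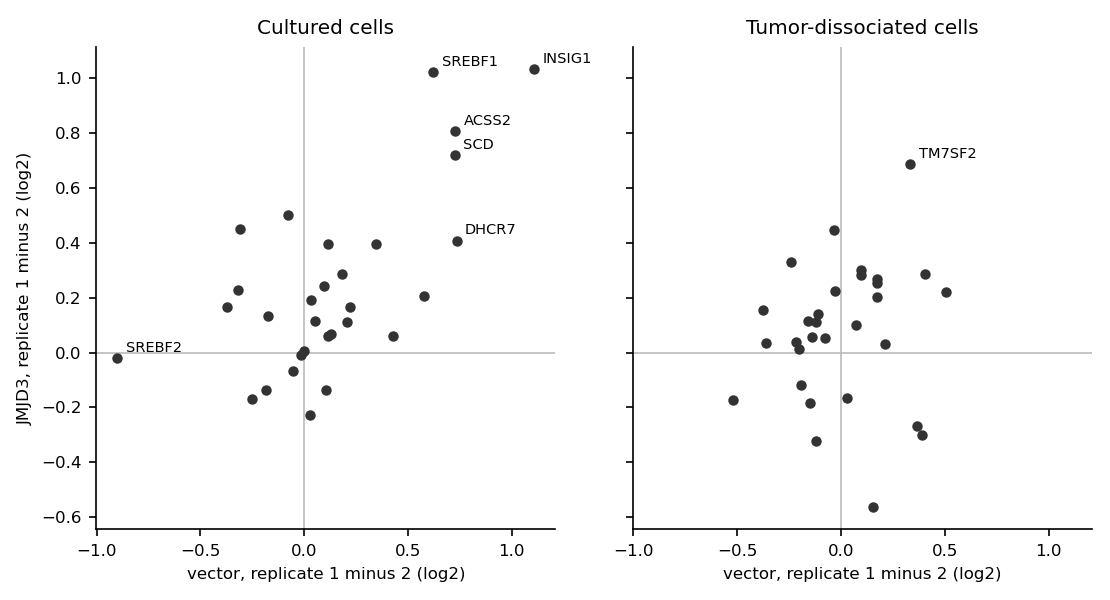
Each point is 1 of 30 members, with the log2 difference of replicate 1 minus replicate 2 in vector cells on the x axis and in JMJD3 cells on the y axis, for cultured cells on the left and dissociated cells on the right. In culture INSIG1, SREBF1, SCD, ACSS2 and DHCR7 lie in the upper right, and in dissociated cells INSIG1 and SCD lie near the origin.

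JMJD3 against vector gave 0 called members in either origin. In cultured cells 0 of 30 passed in limma and 0 had an unadjusted p under 0.05, against 0.0886% and 4.34% of all genes. The log2 differences ran from -0.27 in SREBF1 to 0.22 in PMVK, with a median of -0.12 over the members and -0.01 over all genes. Of the 30 members 21 were negative, and 7 lay below the vector arrays and 3 above them without overlap, against 18.5% and 17.8% of all genes. INSIG1 differed by -0.14 ± 0.38, with a 95% interval of -1.01 to 0.72, and SCD by 0.00 ± 0.28, with an interval of -0.63 to 0.64.

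In dissociated cells 0 of 30 passed and 2 had an unadjusted p under 0.05, ACSS2 and FASN, against 0.822% and 13.7% of all genes. ACSS2 was 1482 and 1325 in vector against 2353 and 2059 in JMJD3 cells, a log2 difference of 0.69 ± 0.30 (limma adjusted p = 0.349). FASN was 4794 and 4709 against 6256 and 7001, a difference of 0.49 ± 0.18 (limma adjusted p = 0.275). Over the module 8 members lay above the vector arrays and 2 below without overlap, against 19% and 19.6% of all genes. All 4 genes of acetyl-CoA supply and fatty acid synthesis were among the 8 at their brightest probe, and none of them passed. The second ACACA probe went the other way, with a log2 difference of -0.08. At their other probes above background ACLY differed by 0.50 and ACSS2 by 0.80 and 0.24. The sterol genes were split, with TM7SF2 at -0.37 ± 0.26, DHCR7 at 0.27 ± 0.25 and MSMO1 at 0.26 ± 0.17. The second DHCR7 probe was at 0.26, but the other MSMO1 probes were at -0.03 and -0.07. The median was -0.04 over the members and 0.00 over all genes. Averaged over both origins, 0 of 30 members passed and 0 had an unadjusted p under 0.05, against 0.475% and 11% of all genes, and differences ran from -0.24 in EBP to 0.26 in PMVK.

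**Figure D5:**
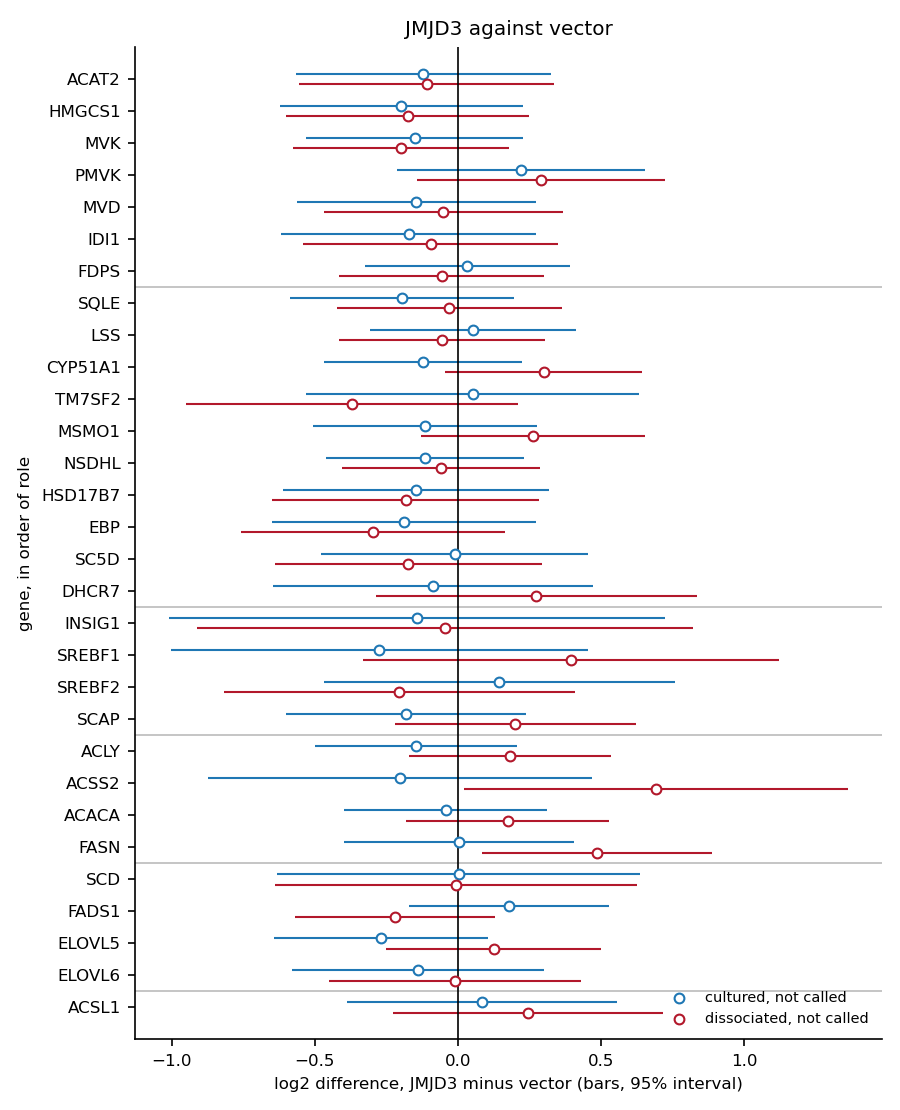
Points are log2 differences of JMJD3 minus vector cells for 30 members, separately for cultured and dissociated cells, with 95% intervals as lines and open symbols for genes not called. Every symbol is open, and ACSS2 and FASN in dissociated cells lie farthest to the right.

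Several members had more than 1 probe above background, and in the averaged origin comparison these gave the same direction with 1 exception. There the second probe of DHCR7 differed by 1.34 on the log2 scale and that of INSIG1 by 0.86. Second probes of SREBF1 and ACACA differed by 0.83 and 0.73, and limma called all 4. SQLE differed by 0.36 at its second probe and did not pass. MSMO1 differed by 0.88 and 0.23 at its other probes and ACSS2 by 0.76 and 0.26, and the smaller value of each did not pass. The second ACAT2 probe differed by -0.01, against 0.47 at the brighter one. For vector cells alone these were -0.24 and 0.46. Between the origins in JMJD3 cells the MSMO1 probes differed by 1.18, 0.93 and -0.04, and the ELOVL6 probes by 0.29 and -0.08. Probes of ACAT2, MSMO1, INSIG1 and ACACA split in direction for JMJD3 against vector in dissociated cells. Cultured cells had such splits in MSMO1, ACLY and ELOVL6. What part of the transcript each probe covers was not examined.

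Genes next to the module, taken from lists of uptake, side branches and use of the same lipids, were compared between the origins too. The counts stand against 11.8% of all genes that rose and 10.7% that fell, and several are close to those shares. Of 12 tested genes of sterol uptake, storage and efflux, 5 rose and 0 fell. NR1H3, which encodes the oxysterol receptor LXR alpha, rose 3.32-fold (log2 1.73 ± 0.19, limma adjusted p = 0.000480), and its measured values were 537 and 384 in cultured vector, 694 and 557 in cultured JMJD3, 1519 and 1269.5 in dissociated vector, and 1966 and 1400.5 in dissociated JMJD3 cells. ABCA1, the cholesterol exporter, rose 2.20-fold (log2 1.14 ± 0.28, limma adjusted p = 0.0207). The lysosomal acid lipase LIPA rose 1.81-fold, and the phospholipid acyltransferase LPCAT3 1.37-fold. The fifth, the apolipoprotein APOE, was above background on 2 dissociated and no cultured arrays, so it was tested through the origin where it was high; without it 4 of 11 rose, with a median of 0.05. Of 4 tested genes of other sterol synthesis and SREBP processing, 1 rose, MBTPS1, the protease that makes the first SREBP cleavage (log2 0.42 ± 0.11, limma adjusted p = 0.0281).

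In the branches that leave the pathway before squalene, of 12 non-sterol isoprenoid genes 0 rose and 3 fell against the same shares, the prenyltransferase subunit RABGGTB (log2 -0.57 ± 0.12) and the ubiquinone synthesis enzymes PDSS1 (-0.45 ± 0.13) and COQ2 (-0.43 ± 0.13), with a median of -0.12. Of 17 tested genes of other fatty acid and glycerolipid synthesis, 4 rose and 1 fell. SLC25A1, the mitochondrial citrate exporter, rose 2.17-fold (log2 1.12 ± 0.14, limma adjusted p = 0.000880), and the desaturase SCD5 rose 1.99-fold (log2 0.99 ± 0.15, limma adjusted p = 0.00278). Both passed in vector and in JMJD3 cells. SCD5 was dim, between 162 and 183 in culture and between 217 and 266 in dissociated cells, so the background correction sets its fold. LPIN1 and DGAT1, enzymes of triglyceride synthesis, rose by 0.69 and 0.54 on the log2 scale, and the elongase ELOVL4 fell by 0.35. Among 14 genes of fatty acid oxidation above background in both origins 3 rose and 0 fell, with a median of 0.14. These were the trifunctional protein subunits HADHA (0.42) and HADHB (0.47) and the isomerase ECI1 (0.51). The coactivator PPARGC1A was above background on the 4 dissociated arrays alone, between 164 and 197, and is not counted. Of 5 lipid droplet genes 1 rose, the coat protein PLIN3 (0.46). JMJD3 against vector called 0 genes of any of these lists in either origin.

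Other markers moved with origin too. Summed fibroblast marker intensity above background was 299 to 371 in cultured vector and 368 to 439 in cultured JMJD3 cells, and 1381 to 1952 in dissociated vector and 1303 to 2770 in dissociated JMJD3 cells. Of 8 fibroblast markers 6 were above background on at least 1 array of each origin and 4 of them rose, COL1A1, COL1A2, PDGFRA and PDGFRB. COL1A1, COL1A2 and PDGFRA were near the background level in culture. COL1A1 measured 154 and 162 in cultured vector and 152 and 148 in cultured JMJD3 cells. It passed the filter through the dissociated arrays, so its call rests on the origin where it was high. FAP was above background in dissociated cells alone, and THY1 on 0 of 8 arrays. The adipocyte markers ADIPOQ and PLIN1, the leukocyte markers PTPRC and CD3E, the endothelial markers CDH5, VWF and KDR, and the keratinocyte markers KRT5, KRT1 and DSG3 were above background on no array. By contrast CD68, CD14, LEP and KRT10 were above background on 8 of 8 arrays and LPL and LYZ on 7. CSF1R was above it on 4 and measured 558 on dissociated JMJD3 replicate 1. Cell cycle genes fell in 4 of 14 and rose in 0, against 10.7% and 11.8% of all genes, with RRM2 at -1.33 ± 0.30, CENPE at -0.91 ± 0.16, TYMS at -0.68 ± 0.15 and CENPF at -0.65 ± 0.13. The summed level of these 14 genes was 36225 to 36783 in cultured vector, 34203 to 36226 in cultured JMJD3, 26916 to 33031 in dissociated vector and 19613 to 29218 in dissociated JMJD3 cells. The summed melanocyte lineage markers were 2109 to 3088, 1960 to 2555, 282 to 1661 and 1245 to 2298 in the same order of groups, and 1 of 3 tested rose, MITF. Of the other cells' markers, the myeloid LYZ and the keratinocyte KRT14 fell. KRT14 measured 137 and 134 in dissociated vector and 139 and 165 in dissociated JMJD3 cells, near or below background. Its call therefore rests on the cultured arrays, where it was high. The endothelial PECAM1 was above background on the 2 dissociated JMJD3 arrays alone, at 180.1 and 175. The adipocyte marker FABP4, a fatty acid-binding protein, was above background on the 4 JMJD3 arrays alone, at 177 and 195 in culture and 423 and 305 in dissociated cells. With JMJD3 in dissociated cells 1 of 14 cell cycle genes was called, the kinetochore motor CENPE, which fell (log2 -1.51 ± 0.23, limma adjusted p = 0.0212). Of 4 tested adipocyte markers 1 was called there, FABP4, which was higher, against 0.822% of all genes called. FABP4 was also called in the averaged JMJD3 and averaged origin comparisons. It passed the filter through the JMJD3 arrays alone, so these calls rest on the groups where it was high. The part of the fibroblast and other cell markers and of the cell cycle genes in the rise of the sterol and fatty acid genes was not tested.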

How the data were processed

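Per the labels, total RNA was isolated with Qiazol, labelled with biotin after amplification, and hybridised to Illumina HumanHT-12 V4 BeadChips. The deposited table holds intensity values of 47323 probes, not log transformed, and the submitters' processing notes name GenomeStudio. No source used here gives the normalization. Once sorted, the columns of the 8 arrays differed by no more than 0.0057 in log2, as after quantile normalization. Intensities ran from 110.7 to 31938, so no background had been subtracted. A non-normalized table was not used, since its 8 signal columns, among 16 columns with their detection p-values, carry names that match no sample label.

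Of the probes, 30113 had 1 gene symbol in the platform annotation, 8 had several and 17202 none. Entrez identifiers matched 30074 probes to the RefSeq genes of GRCh38.p14. The background level, 161.4, was the one-sided 0.01 point of a distribution centred on the mode of the values, 139.7, with SD 0.0892 on the log2 scale. A probe passed if above that level on at least 2 of 8 arrays, as 22287 did, and each gene was represented by its brightest passing probe. Intensities in the text are as deposited. For tests, values were corrected with normexp (offset 16) and log2 transformed, which sets how large the fold of a dim gene is. No further normalization was applied.

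Differences were tested with limma 3.58.1 (lmFit, eBayes; R 4.3.3), in 1 model of 4 group means over 8 arrays with 4 residual and 5.11 prior degrees of freedom. The 7 comparisons were JMJD3 against vector in each origin and averaged, dissociated against cultured cells in each genotype and averaged, and the interaction. P-values were adjusted by Benjamini-Hochberg over 12415 genes, with 0.05 as the threshold, and intervals are 95%. An exact permutation test of 2 arrays against 2 cannot give a p below 0.333. Genes above background in 1 origin alone passed the filter through that origin, and no fold is given for them. The code was tested on simulated data.

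The members, the other lists and the tests were chosen with earlier results of these data known. Values on every array are given for each called member and, in each role, the 2 members with the largest averaged origin or JMJD3 difference. In other lists, called genes are named, those beyond the 4 largest after their values were seen. Alternatives changed the background correction, scaling, filter, choice of probe, variance model, arrays and replicate block. No source used here gives slide positions.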

Additional observations from a re-analysis of the deposited data

Results flagged for a closer look

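For 3 members every JMJD3 array lay on one side of the vector arrays in culture and on the other side in dissociated cells. Over all genes, the JMJD3 arrays lay above the vector arrays without overlap in 17.8% and below in 18.5% in culture. In dissociated cells these shares were 19% and 19.6%. How many of all genes changed sides was not counted, so the 3 are not set apart from them. The JMJD3 effect on the log2 scale was -0.12 in culture and 0.30 in dissociated cells for the lanosterol demethylase CYP51A1, a difference of 0.42 (limma adjusted p = 0.781). For the citrate-cleaving enzyme ACLY it was -0.15 and 0.18, a difference of 0.33 (limma adjusted p = 0.866). The second ACLY probe did not change sides, at 0.09 in culture, where its groups overlapped, and 0.50 in dissociated cells. For the desaturase FADS1 it was 0.18 and -0.22, a difference of -0.40 (limma adjusted p = 0.801). The elongase ELOVL5 separated the origins in opposite directions, with every dissociated array lower in vector cells and every one higher in JMJD3 cells, and the same interaction of 0.39 (limma adjusted p = 0.825). Over all genes, 30.8% lay lower in dissociated vector cells and 26.6% higher in dissociated JMJD3 cells without overlap, each counted alone. None of the 4 members passed the test of the difference itself.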

How the results depend on the processing

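The averaged origin comparison called 19 members, 18 to 20 under each change of background correction or scaling and 17 to 19 under each change of filter, probe choice or variance model. Leaving out 1 array at a time gave 9 to 17 members averaged over genotypes, 2 to 8 in vector cells and 0 to 10 in JMJD3 cells. Leaving out both cultured arrays numbered 1, the counts were 10, 3 and 3 in that order, and leaving out both numbered 2 they were 7, 0 and 0. In JMJD3 cells the 11 calls became 5 with no filter on dim probes, 7 with array weights and 2 in a fit of the compared groups only. The cause of these shifts was not tested. In 22 alternatives, 7 of the 19 averaged calls were kept throughout (MVK, TM7SF2, MSMO1, DHCR7, INSIG1, SCD and FADS1) and the other 12 were lost in at least 1. No called member reversed direction, and the JMJD3 and interaction comparisons called 0 members in every setting.

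Replicate numbers were checked as a possible pairing. The replicate 1 minus replicate 2 differences correlated across all genes with r = 0.371 between both cultured groups and 0.0463 to 0.146 between the other pairs of groups. Across the 30 members r was 0.651 between both cultured groups and -0.13 to 0.279 between the other pairs. Genes are not independent replicates. The SEs of the main fit treat the cultured arrays as independent. The labels do not say that a number marks a shared culture, so the numbers were not taken to pair the arrays. With the replicate block 19 members were called averaged over genotypes, 8 in vector and 13 in JMJD3 cells. With a replicate block within each origin, chosen after seeing the data, they were 10, 6 and 8.

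Over all genes the averaged origin comparison called 2799, between 442 and 3227 under the alternatives. The ranges were 172 to 1581 around 1258 in vector cells and 18 to 1307 around 740 in JMJD3 cells. JMJD3 against vector called 11 genes in culture (0 to 44), 102 in dissociated cells (15 to 426) and 59 averaged (3 to 349), and the interaction 13 (0 to 69). Without background correction the share of averaged JMJD3 calls that were higher was 68.6% in place of 79.7%. No scaling moved the median of all genes by over 0.1. Signal over background limits MVK, MVD, TM7SF2 and SREBF2, which were near the background level in culture.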
